A study of Mus musculus with 20 samples.

Results

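The interaction of dam condition and age was examined across all genes of the small intestine, that is, how far the difference between offspring of dams with periodontitis and offspring of control dams at 7 weeks departed from the same difference at 2 weeks. It was computed as (periodontitis minus control at 7 weeks) minus (periodontitis minus control at 2 weeks) on the log2 scale, so a positive value marks a gene whose periodontitis-to-control ratio was larger at 7 weeks. All 20 of the 20 libraries entered it, 5 in each of 4 groups, and 17464 of 55487 genes passed the filter on low counts. The 4 groups were control and periodontitis at 2 weeks, and control and periodontitis at 7 weeks. The condition was that of the dam, and periodontitis is an inflammation of the tissue around the teeth. The labels give tissue, age and condition only, and state no strain, genotype, sex, litter, segment of the intestine or hour of collection for any group. The animals of the 2 ages were different libraries, so no animal was followed over time. The study's title places the comparison in work on oral bacteria passed from mother to infant and on later enteritis in the offspring.

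Weaning changes the small intestine of mice. The suckling epithelium takes up milk proteins whole and digests them in lysosomes, and it is replaced around weaning by an epithelium with brush border sucrase and peptidases, with Paneth cells in mature crypts and with B cells entering follicles and making antibody. Adrenal glucocorticoid rises before weaning and promotes this maturation, and Klf15 and Fkbp5 are among the genes that the glucocorticoid receptor induces in many tissues. Fat cells of the attached mesentery can enter whole-tissue samples, and Cfd, Retn and Adipoq are made mainly by fat cells.

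Only 4 genes passed the interaction test, and all 4 were higher on the interaction scale, with lower measured values in periodontitis offspring at 2 weeks and higher ones at 7 weeks. They were Klf15, a zinc finger transcription factor of glucocorticoid and fasting responses, Scd1, the enzyme that puts a double bond into saturated fatty acids, Cfd, the complement protease factor D or adipsin, and Retn, the fat cell hormone resistin. The 4 genes were 0.0229% of all genes tested (edgeR quasi-likelihood test, Benjamini-Hochberg adjusted p under 0.05), 4 higher and 0 lower. At an unadjusted p under 0.05 there were 1537 genes, or 8.8%, of which 961 (5.5%) were higher and 576 (3.3%) lower. DESeq2 called 65 genes, 42 higher and 23 lower. Each p-value assumes 5 independent libraries in every group, and if pups of 1 litter were sampled together the spread between litters is not fully measured.

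The upstream sequences of the genes that passed are shown because all 4 were lower at 2 weeks and higher at 7 weeks in periodontitis offspring, and were taken from the RefSeq promoter table on GRCm38.p6. The table matched 3 of the 4 genes and had no entry for Scd1. Each stretch is the 250 bases before the gene's start on the plus strand, at chr6:90462326-90462575 for Klf15, chr8:3655520-3655769 for Retn and chr10:79890603-79890852 for Cfd. Capitals mark matches, on either strand, to the 4 motifs searched, which were GCGTG (the core of the xenobiotic response element), CACGTG (the E-box bound by clock proteins, the same on both strands), AGATAA, a motif of GATA factors, and TTTATNG, a motif of CDX factors.
Klf15: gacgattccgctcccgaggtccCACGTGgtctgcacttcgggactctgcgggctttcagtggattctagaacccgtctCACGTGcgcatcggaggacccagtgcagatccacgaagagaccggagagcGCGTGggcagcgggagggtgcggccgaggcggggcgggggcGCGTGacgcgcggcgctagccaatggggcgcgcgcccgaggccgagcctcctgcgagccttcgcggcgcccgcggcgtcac
Retn: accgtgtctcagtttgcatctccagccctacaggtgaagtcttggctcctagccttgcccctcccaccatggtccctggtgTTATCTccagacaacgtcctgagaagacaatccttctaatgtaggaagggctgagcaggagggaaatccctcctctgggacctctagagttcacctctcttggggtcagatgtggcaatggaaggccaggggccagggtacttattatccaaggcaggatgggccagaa
Cfd: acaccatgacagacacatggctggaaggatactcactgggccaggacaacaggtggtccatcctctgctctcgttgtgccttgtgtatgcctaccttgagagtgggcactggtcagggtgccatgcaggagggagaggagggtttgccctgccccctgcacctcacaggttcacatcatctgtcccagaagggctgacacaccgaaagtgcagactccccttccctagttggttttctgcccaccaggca
Klf15 held 2 E-boxes, from -228 to -223 and from -172 to -167 counted from the gene's start, and 2 GCGTG matches, from -122 to -118 and from -81 to -77. Retn held 1 GATA match, from -169 to -164, and Cfd held 0 matches. Of 32851 promoters of the table, 6.02% held CACGTG, 28.2% GCGTG, 9.99% AGATAA and 9.81% TTTATNG. No motif was shared by the 3 genes, and a match here is a run of letters, not a measured binding site.

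Klf15 (ENSMUSG00000030087, chr6:90462576-90475238 on GRCm38, plus strand) gave the smallest p of all genes. At 2 weeks its level in the 5 control libraries was 3.23, 3.27, 2.36, 3.5 and 4.67 CPM (counts relative to library size after TMM scaling), and in the periodontitis libraries 1.44, 1.28, 1.36, 2.32 and 1.39 CPM. At 7 weeks it was 2.62, 4.02, 2.75, 3.27 and 4.43 CPM in control libraries and 9.4, 7.21, 26.8, 9.78 and 17.1 CPM in periodontitis libraries. The groups did not overlap at either age: every periodontitis library lay below the controls at 2 weeks and above them at 7 weeks. On this scale the control groups of the 2 ages covered nearly the same range. Their TMM factors differed, at 0.8355 to 1.368 at 2 weeks and 0.7146 to 0.8573 at 7 weeks. Levels set side by side across the ages thus depend on the scaling. The group means were 3.41 ± 0.83 and 1.56 ± 0.43 CPM at 2 weeks and 3.42 ± 0.79 and 14.1 ± 8.04 CPM at 7 weeks (control, then periodontitis; SD, n = 5 each). The log2 difference was -1.11 ± 0.31 at 2 weeks and 2.05 ± 0.31 at 7 weeks, which gave an interaction of 3.16 ± 0.44 (SE) with an edgeR adjusted p of 0.01. Of the single ages, 7 weeks passed by itself (edgeR adjusted p = 0.0188) and 2 weeks did not (0.109).

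Scd1 (ENSMUSG00000037071, chr19:44394455-44407879, minus strand) had the same order of groups with a smaller 2-week difference. Control libraries held 5.6, 5.29, 4.66, 7.15 and 4.59 CPM at 2 weeks and 6.14, 5.98, 6.56, 4.32 and 5.84 CPM at 7 weeks. Periodontitis libraries held 3.48, 4.37, 3.37, 4.04 and 3.89 CPM at 2 weeks and 10.8, 11.3, 38, 28.5 and 18.9 CPM at 7 weeks. Again no periodontitis library overlapped the controls of its age, and the 7-week periodontitis libraries differed more among themselves than any other group. The log2 difference was -0.52 ± 0.27 at 2 weeks and 1.90 ± 0.28 at 7 weeks, and the interaction was 2.41 ± 0.39 (SE; edgeR adjusted p = 0.0238). The gene lies beside its paralogue Scd2, and reads that match several genes are divided by estimation in the authors' counting, so the share given to each is less certain than their sum.

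Cfd (ENSMUSG00000061780, chr10:79890853-79892655, plus strand) had the largest interaction of the 4. At 2 weeks control libraries held 1.96, 1.52, 3.07, 3.98 and 0.402 CPM, and periodontitis libraries 0.206, 0.192, 0.142, 0.358 and 0.447 CPM. At 7 weeks control libraries held 1.09, 0.588, 0.492, 0.389 and 0.845 CPM, and periodontitis libraries 14.8, 10.4, 9.49, 39.4 and 0.174 CPM. Both ages had an overlap through 1 library: control library 5 of 2 weeks lay within the periodontitis range, and periodontitis library 5 of 7 weeks lay below all 5 controls. The interaction was 7.47 ± 1.13 (SE; edgeR adjusted p = 0.0156), made of -3.05 ± 0.79 at 2 weeks and 4.42 ± 0.81 at 7 weeks, and neither age passed by itself (edgeR adjusted p = 0.0896 and 0.104).

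Retn (ENSMUSG00000012705, chr8:3655770-3660110, plus strand) had high and low libraries in common with Cfd at a lower level. Its counts were 16, 12, 10, 17 and 2 in control and 3, 2, 2, 0 and 4 in periodontitis libraries at 2 weeks, and 3, 2, 0, 1 and 2 in control and 26, 32, 32, 58 and 1 in periodontitis libraries at 7 weeks. In CPM the 2-week groups did not overlap, at 0.161 to 0.374 in control and 0 to 0.0894 in periodontitis libraries. At 7 weeks 4 periodontitis libraries held 1.02 to 3.61 CPM, above all controls (0 to 0.0995), and library 5 held 0.0289. The interaction was 7.05 ± 1.15 (SE; edgeR adjusted p = 0.0238), with -2.57 ± 0.80 at 2 weeks and 4.48 ± 0.82 at 7 weeks. With so few counts in 3 of the groups, the size of this value is loosely fixed.

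**Figure D1:**
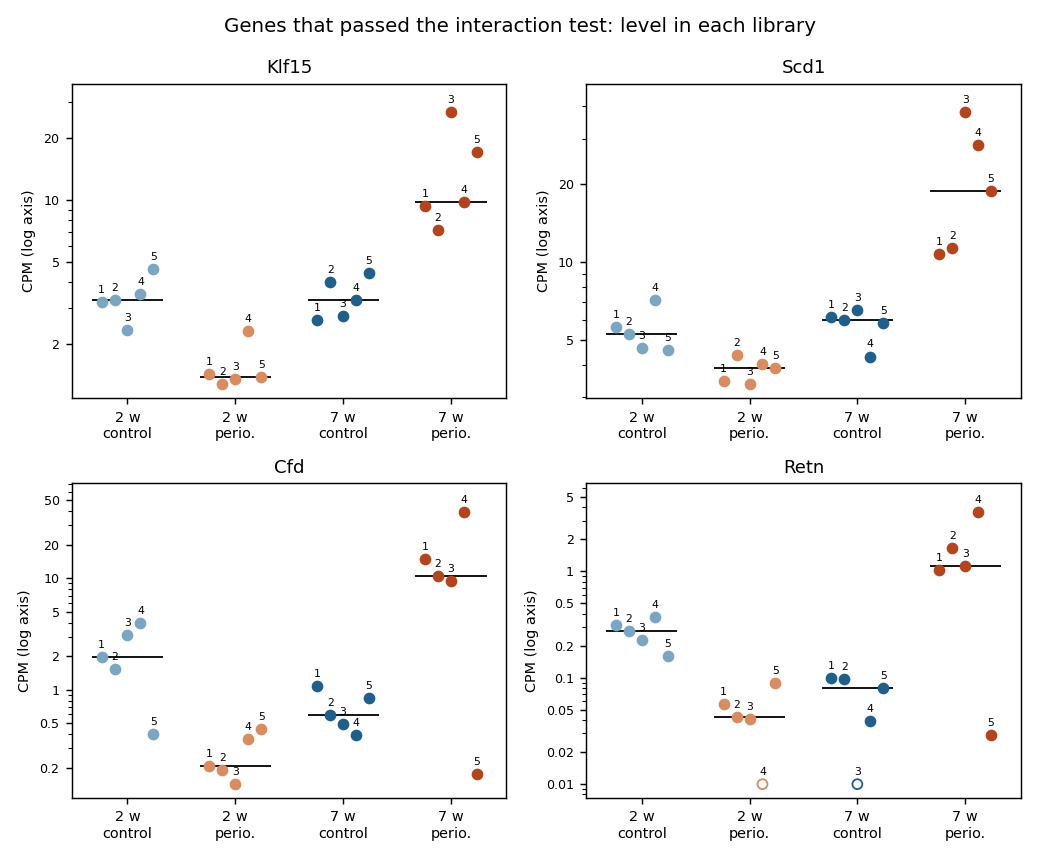
Level of the 4 genes that passed, in CPM on log axes, in each library (numbered points; open points are libraries with 0 counts, drawn at 0.01) with the group median as a bar. Klf15 and Scd1 are separated between dams at both ages, whereas Cfd and Retn in periodontitis library 5 of 7 weeks (0.174 and 0.0289 CPM) lie far below the other 4 of that group.

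Adipoq, Car3 and Plin1 had large positive interactions like Cfd and Retn, and most other members of the adipocyte list did not. Adipoq, the hormone adiponectin, held 0.697, 0.23, 0.478, 1.14 and 0.161 CPM in control and 0.131, 0.0426, 0.0812, 0.0682 and 0.358 CPM in periodontitis libraries at 2 weeks. At 7 weeks it held 0.133, 0, 0.0984, 0.0389 and 0.121 CPM in control and 2, 1.48, 1.52, 6.04 and 0 CPM in periodontitis libraries. Its interaction of 6.72 ± 1.29 did not pass (SE; edgeR adjusted p = 0.125), nor did those of Car3, a carbonic anhydrase abundant in fat and muscle (3.94 ± 0.78, adjusted p = 0.129), and the lipid droplet coat gene Plin1 (4.57 ± 1.11, adjusted p = 0.249). Over the adipocyte list of 14 tested genes, 2 were called higher and 0 lower (0.0229% of all genes were called). Including these, 6 were higher at an unadjusted p under 0.05 (5.5% of all genes), and 4 of the 14 had negative values. The lipase gene Lpl was among the 6, with 4.91 to 6.63 CPM in control and 6.92 to 34.5 CPM in periodontitis libraries at 7 weeks. At 2 weeks it held 11.2 to 50.1 and 12.7 to 17.2 CPM. The list's median interaction was 0.66, against 0.01 over all genes, from -0.31 at 2 weeks and 0.56 at 7 weeks. The fatty acid binding protein gene Fabp4 had 0.90 ± 0.45, the nuclear receptor Pparg 0.43 ± 0.33, the lipid droplet genes Plin4, Cidea and Cidec 0.24 ± 0.64, -0.38 ± 0.63 and -0.70 ± 0.42, and the glucose transporter gene Slc2a4 0.030 ± 0.59 (SE).

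The mean log2 CPM of the adipocyte list was 3.17, 2.92, 3.27, 3.96 and 1.78 in periodontitis libraries 1 to 5 of 7 weeks and 1.57 to 2.27 in the controls of that age. At 2 weeks it was 2.18 to 2.82 in periodontitis and 2.37 to 3.36 in control libraries. The summed level of the list, which a few abundant members dominate, was 541 to 904 and 884 to 1230 CPM at 2 weeks and 568 to 1110 and 739 to 1050 CPM at 7 weeks (control, then periodontitis). Over all libraries Pck1 held 180 to 925, Cidec 41.5 to 339 and Lipe 22.4 to 208 CPM. The sum thus says little of low-level members such as Adipoq and Retn. In whole tissue, a change in the number of fat cells and a change in the RNA of each cannot be told apart. Klf15 and Scd1 are also expressed in fat. In periodontitis library 5 of 7 weeks Adipoq and Plin1 were at 0, Klf15 was at 17.1 CPM and Scd1 at 18.9 CPM, both above every control. A fit with the mean of the list, less Cfd and Retn, as a covariate was added after the data were seen. It called 0 genes (edgeR; 2070 at an unadjusted p under 0.05, while DESeq2 without the covariate called 65). In it the interaction was 3.24 for Klf15 (adjusted p = 0.121) and 1.85 for Scd1 (0.288), and that of Cfd fell to 3.72 and that of Retn to 4.54 (0.288 each). The covariate leaves out Cfd and Retn and holds the other tested members of the list, among them Adipoq, Car3 and Plin1.

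Among the 13 tested genes of the glucocorticoid response, Klf15 passed (0.0229% of all genes did), and the other 6 at an unadjusted p under 0.05 were all positive (5.5% of all genes were positive at that p). The list's median interaction was 0.68, with -0.55 at 2 weeks and 0.43 at 7 weeks, and 11 of 13 members had a negative 2-week and 10 a positive 7-week difference. Fkbp5, a co-chaperone that restrains the glucocorticoid receptor, was at 2.73 ± 0.64 (SE; edgeR adjusted p = 0.206). Its 2-week levels were 29.6, 30.6, 34.3, 17.3 and 9.5 CPM in control and 9.03, 9.99, 7.1, 10.9 and 4.78 CPM in periodontitis libraries. At 7 weeks they were 5.54, 9.27, 10.7, 7.08 and 3.58 CPM in control and 22.7, 5.93, 13.3, 5.05 and 34.9 CPM in periodontitis libraries, which overlapped. The metal-binding metallothioneins Mt1 and Mt2 had 1.85 ± 0.62 and 2.55 ± 0.89 (SE; edgeR adjusted p = 0.474 and 0.486). For Mt2 the 7-week periodontitis libraries 1 and 2 held 2.75 and 15.6 CPM, within or below the control range of 9.64 to 18.1, and libraries 3 to 5 held 102, 78.5 and 135 CPM.

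In the pathway of Scd1 no other gene passed in edgeR. Of 13 tested genes of fatty acid synthesis, 1 was called (0.0229% of all genes). The median interaction was -0.01, and at an unadjusted p under 0.05 there were 2 positive and 2 negative members (5.5% and 3.3% of all genes). Thrsp, a nuclear protein of lipogenic tissues, was positive like Scd1 at 2.14 ± 0.47 (SE; edgeR adjusted p = 0.165) and was called by DESeq2 (adjusted p = 0.00232), with 0.584 to 1.36 CPM in control and 1.33 to 4.13 CPM in periodontitis libraries at 7 weeks. The desaturase Scd2 and the lipogenic regulator Srebf1 were negative, at -1.06 ± 0.46 and -1.03 ± 0.48 (edgeR adjusted p = 0.553 and 0.565). Scd2 held 43.3 to 109 CPM in control and 111 to 177 CPM in periodontitis libraries at 2 weeks, without overlap, and 8.89 to 23.9 and 7.76 to 25.9 CPM at 7 weeks.

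Among genes with a mean log2 CPM of at least 1, which leaves out Retn, Adipoq and Hp, 7 of the 10 with the smallest p did not pass, and 5 of the 7 had their larger dam difference at 2 weeks, unlike the 4 that passed. Hp did not pass in edgeR (adjusted p = 0.129) and was called by DESeq2, with an interaction of 5.19 (DESeq2 adjusted p = 0.000457). Glud1, mitochondrial glutamate dehydrogenase, held 173 to 231 CPM in control and 80.1 to 139 CPM in periodontitis libraries at 2 weeks, without overlap, and 165 to 209 and 136 to 282 CPM at 7 weeks, with an interaction of 1.3 ± 0.27. Maoa, monoamine oxidase A, stood at -1.73 ± 0.28 at 2 weeks and 0.18 ± 0.27 at 7 weeks, with an interaction of 1.91 ± 0.39 (SE). Mfsd2a, a transporter of lysophospholipids, had the opposite sign, at 1.67 ± 0.29, -0.40 ± 0.28 and -2.07 ± 0.40. Their edgeR adjusted p were 0.149, 0.149 and 0.125. The transcriptional corepressor Tle1 had a small interaction of 0.84 ± 0.17 (SE; edgeR adjusted p = 0.149) with groups that did not overlap at either age: 28.5 to 34.2 against 19.7 to 25.9 CPM at 2 weeks and 32.9 to 36.2 against 39.2 to 57.6 CPM at 7 weeks (control against periodontitis). Sowaha (1.10 ± 0.23) and Paqr9 (-2.72 ± 0.57) had an edgeR adjusted p of 0.149 each.

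The dam comparison itself called 5 genes at 2 weeks (0.0286%) and 2 at 7 weeks (0.0115%, Klf15 and Scd1), and 0 genes at both ages. That a gene passed at 1 age only does not show that the ages differed, and the interaction of each gene is the test of that. Of the 5 genes of 2 weeks, 0 passed it in edgeR, and DESeq2 called Mfsd2a, Maoa, Trim38 and Ifit2 (DESeq2 adjusted p = 0.00152, 0.00216, 0.00374 and 0.00886). Besides Maoa and Mfsd2a, these were the interferon-induced Ifit2 (-2.32 ± 0.52, edgeR adjusted p = 0.186), the interferon-response regulator Trim38 (2.59 ± 0.56, 0.165) and the complement component gene C8b (-2.78 ± 1.37, 0.574; SE). Ifit2 held 9.95 to 15.6 CPM in control and 16.8 to 117 CPM in periodontitis libraries at 2 weeks, and 3.08 to 5.03 and 2.6 to 4.21 CPM at 7 weeks. C8b at 7 weeks lay at 0 to 0.0805 CPM in control and 0 to 0.277 CPM in periodontitis libraries, so that its 7-week difference had an SE of 1.06.

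With all 20 libraries the interaction came more from the younger age, and this balance depended on 2 libraries. The dam difference had an unadjusted p under 0.05 in edgeR for 2511 genes at 2 weeks and 582 at 7 weeks. Without control library 5 of 2 weeks and periodontitis library 5 of 7 weeks together, these counts were 2912 and 3236. The values that follow are from all 20 libraries. The log2 dam differences had an SD over genes of 0.535 at 2 weeks and 0.457 at 7 weeks, with median SE of 0.272 and 0.277, and the median SE of the interaction was 0.388. Of the 1537 genes at an unadjusted p under 0.05, 1179 (76.7%) had the larger difference at 2 weeks, against 64.6% of all genes, whereas all 4 that passed had it at 7 weeks. Lower at 2 weeks and higher at 7 weeks were 860 of the 1537 (56%) and 27% of all genes. The opposite held for 491 (31.9%) and 24.9%. Because the interaction is a difference of these values, the signs describe it and are no separate test. Over the 17464 genes the dam differences of the 2 ages had a Pearson r of -0.0489 and a Spearman rho of -0.0376, given as a description, as genes are not independent.

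**Figure D2:**
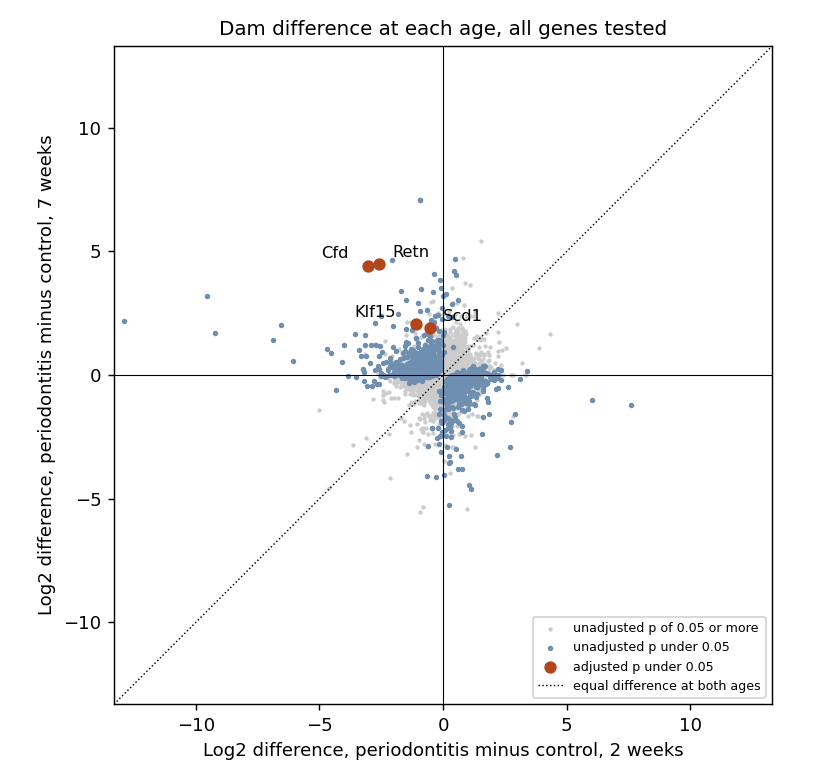
Log2 difference between periodontitis and control at 2 weeks (horizontal) and at 7 weeks (vertical) for each of 17464 genes; the dotted line marks equal differences. The 4 genes that passed lie in the upper left quadrant, and most genes at an unadjusted p under 0.05 spread along the horizontal axis, with the larger difference at 2 weeks (76.7%).

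Several groups of intestinal genes had medians far from zero although 0 members passed in edgeR. These lists were picked for description after their medians were seen, and no test is attached to them. The suckling enterocyte list holds mostly endocytic and lysosomal genes, and also Lct, Ass1 and Prdm1. It had a median interaction of -0.92 in 17 tested genes, with 0.98 at 2 weeks and -0.01 at 7 weeks, and 16 of 17 were negative. The lysosomal protease Ctsl held 159 to 383 CPM in control and 425 to 1320 CPM in periodontitis libraries at 2 weeks, and 79.5 to 127 and 51.4 to 99.7 CPM at 7 weeks (interaction -1.96 ± 0.45; edgeR adjusted p = 0.186). Fcgrt, the receptor that takes up milk antibody, had -2.0 ± 0.65 (SE; 0.453). At 7 weeks it lay at 141 to 196 CPM in control and 155 to 179 CPM in periodontitis libraries, and at 2 weeks at 76 to 1000 and 951 to 4050 CPM. In periodontitis libraries 1 to 5 of 2 weeks Fcgrt held 1440, 951, 3290, 3110 and 4050 CPM, and Ctsl 485, 425, 1320, 1200 and 1300 CPM. For both genes libraries 3 to 5 thus stood well above the other 2, and these are also the libraries with the lowest Fabp6, an ileal gene (17.5, 2.92 and 8.07 CPM, against 365 and 328 in libraries 1 and 2). The endocytic receptor gene Cubn went the other way in them. It held 280, 261, 173, 156 and 171 CPM in periodontitis libraries 1 to 5 and 195 to 330 CPM in controls of 2 weeks.

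Genes of the mature brush border had the opposite sign. In the list of peptidases and amino acid transporters 9 of 21 tested genes were positive at an unadjusted p under 0.05 (5.5% of all genes) and 0 negative, with a median of 0.70, from -0.67 at 2 weeks and 0.18 at 7 weeks. The peptide transporter gene Slc15a1 held 95.8 to 162 against 34.2 to 73.1 CPM at 2 weeks and 270 to 475 against 215 to 658 CPM at 7 weeks (control against periodontitis; interaction 1.68 ± 0.38, SE; edgeR adjusted p = 0.186). The aminopeptidase Anpep had 1.45 ± 0.35 (0.228). The sucrase-isomaltase gene Sis had 2.25 ± 0.98 (0.553), and the lactase gene Lct, which digests milk sugar, -0.16 ± 0.33 (0.904). The 2-week difference of the peptidase and transporter list lay in the same periodontitis libraries 3 to 5, with a mean log2 CPM of 6.82, 6.59 and 6.65, against 7.48 in each of libraries 1 and 2 and 7.48 to 7.80 in controls. Sis held 277, 462, 28, 9 and 19.2 CPM in the 5 periodontitis libraries.

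Among 19 cytochrome P450 genes the median was 0.83, from -0.87 at 2 weeks and -0.10 at 7 weeks. At 2 weeks the list averaged 4.42 and 4.63 log2 CPM in periodontitis libraries 1 and 2, within the control range of 4.40 to 5.42, and 3.48, 2.45 and 3.01 in libraries 3 to 5. Cyp1a1, which dietary and microbial ligands of the aryl hydrocarbon receptor induce, was at 0 to 1.69 CPM in all libraries of 2 weeks and at 69.3 to 346 CPM in all of 7 weeks, and its interaction of 3.71 ± 1.36 (SE; edgeR adjusted p = 0.507) rests on the few counts of the younger age. It was 2.41 without control library 4 of 2 weeks and 1.40 in limma-voom.

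The Paneth cell and antimicrobial lists had positive median interactions, and the Paneth cell median and Reg3g depended on few libraries. All 17 tested Paneth cell genes were positive, with a median of 1.18, from -0.76 at 2 weeks and 0.39 at 7 weeks. The median was 0.42 without periodontitis library 5 of 7 weeks and 0.01 without that library and control library 5 of 2 weeks. Lyz1, the Paneth lysozyme, held 924 CPM in that periodontitis library and 98.2 to 146 CPM in the other 4, and its interaction was 1.16 ± 0.90 (SE; edgeR adjusted p = 0.707). The alpha-defensin genes in the list are near-identical copies, so their single values are uncertain. In the list of other antimicrobial genes (12 tested, median 1.01, from -1.03 and 0.13) the lectin Reg3a held 11.9 to 27.9 CPM in control and 0.58 to 14.6 CPM in periodontitis libraries at 2 weeks, and 114 to 225 and 119 to 286 CPM at 7 weeks (2.14 ± 0.80; 0.507). The related Reg3b had 2.26 ± 0.89 (0.523) and Reg3g 1.95 ± 1.02 (0.589). Reg3g held 797 CPM in periodontitis library 1 of 7 weeks and 27.1 to 177 CPM in the other 4, and its interaction was 0.62 without that library and 0.49 with the levels of proximal and distal intestine genes as covariates. At 2 weeks the antimicrobial list averaged 5.57 and 5.31 log2 CPM in the first 2 periodontitis libraries, close to the controls (5.39 to 5.93), whereas libraries 3 to 5 averaged 3.89, 3.75 and 4.07. With the levels of proximal and distal intestine genes as covariates, the median interaction was -0.52 for the suckling enterocyte list. It was 0.44 for the peptidase and transporter list, 0.53 for the antimicrobial list and at least 0.61 for the cytochrome P450 list. The part of libraries 3 to 5, and of their low Fabp6, in these 4 lists was not tested.

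B cell genes had the median farthest from zero of all lists described. All 17 tested follicle genes were negative, 9 of them at an unadjusted p under 0.05 (3.3% of all genes), with a median of -2.26, and the difference lay at 7 weeks (-2.32) and not at 2 weeks (-0.12). The Fc receptor gene Fcmr held 1.09, 1.18, 4.03, 0.895 and 0.0402 CPM in control and 0, 0, 0.0346, 0.436 and 0.0579 CPM in periodontitis libraries at 7 weeks, and 1.1 to 1.74 and 0.604 to 2.51 CPM at 2 weeks (interaction -4.06 ± 1.10, SE; edgeR adjusted p = 0.35). Pax5, the B lineage transcription factor, had -3.86 ± 1.22 (0.427) and the antigen receptor gene Cd79a -2.29 ± 0.89 (0.521). The groups of 7 weeks overlapped. The list's mean log2 CPM was 0.91, 0.60, 2.04, 0.37 and -2.15 in control libraries and -2.14, -2.64, -2.42, 0.13 and -1.64 in periodontitis libraries, so that control library 5 resembled most periodontitis libraries and periodontitis library 4 lay near most controls. With 1 library left out, the median interaction ran from -3.245 (without that periodontitis library 4) to -1.652 (without control library 3 of 7 weeks).

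The medians of the MHC class II and plasma cell lists rested on control library 3 of 7 weeks. All 11 MHC class II genes, which present antigen to T cells, were negative, with a median of -0.83, and -0.36 without that library. H2-Eb2 was at -2.28 ± 0.76 (SE; edgeR adjusted p = 0.474). The 12 plasma cell genes had a median of -0.90, and -0.04 without it. The light chain gene Iglc2 held 12.7 to 209 CPM in control and 7.26 to 39 CPM in periodontitis libraries at 7 weeks and at most 1.53 CPM in each library of 2 weeks (-1.68 ± 0.76; 0.559). The cytokine genes Il1b and Tnf had -0.48 ± 0.51 and -0.59 ± 0.70, the stem cell receptor Lgr5 0.28 ± 0.52 and the mucin Muc2 0.16 ± 0.38 (adjusted p from 0.789 to 0.92).

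**Figure D3:**
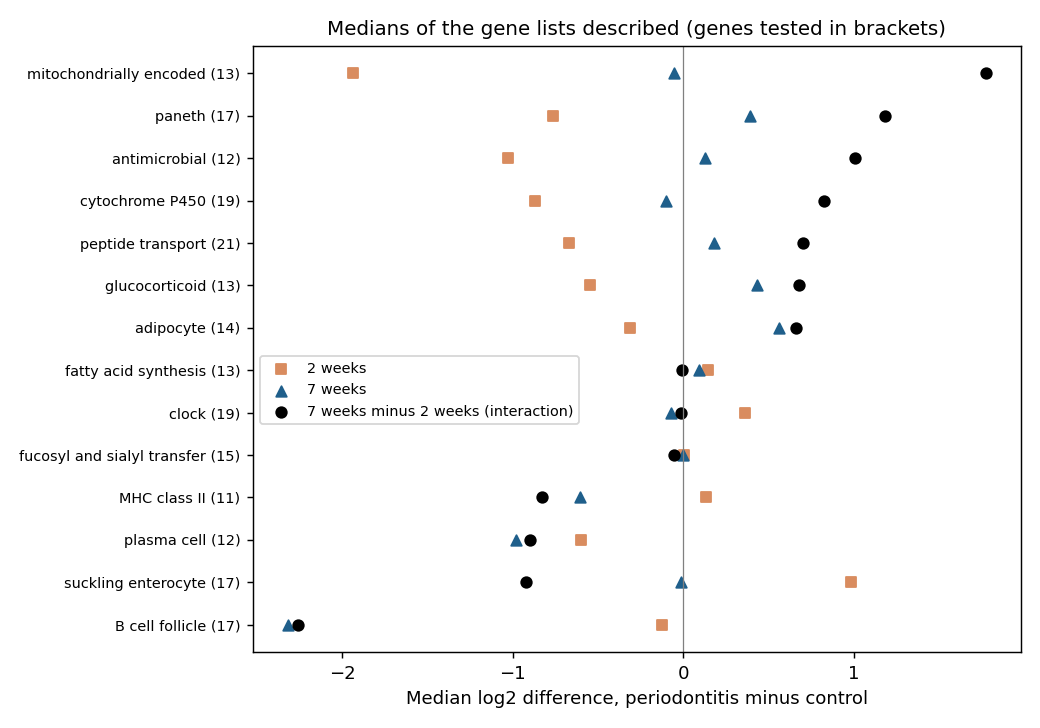
Median log2 difference between periodontitis and control at 2 weeks (squares), at 7 weeks (triangles) and their difference (circles) for the 14 gene lists described, with the number of genes tested. Suckling enterocyte genes (0.98 and -0.01) are away from zero at 2 weeks, B cell follicle genes (-0.12 and -2.32) at 7 weeks, and adipocyte genes (-0.31 and 0.56) on opposite sides at the 2 ages.

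Genes of the circadian clock and of glycan transfer had medians near zero but many members on either side. Of 19 clock genes, 4 were positive and 5 negative at an unadjusted p under 0.05 (5.5% and 3.3% of all genes), with a median of -0.01. Per1, which glucocorticoid also induces, had 1.45 ± 0.45 and Per2 -1.50 ± 0.40 (SE; edgeR adjusted p = 0.407 and 0.35). At 7 weeks Per1 held 4.34 to 8.29 CPM in control and 9.31 to 24.7 CPM in periodontitis libraries, without overlap, and Per2 held 12.6 to 22.1 and 5.15 to 16.9 CPM. At 2 weeks Per1 held 13.8 to 41.1 and 14.9 to 37.2 CPM. Of 15 fucosyl- and sialyltransferase genes, which change surface glycans at weaning, 4 were positive and 3 negative at that p (again beside 5.5% and 3.3%). Fut4 had 1.60 ± 0.37 and St3gal5 -2.21 ± 0.74 (edgeR adjusted p = 0.189 and 0.474).

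**Figure D4:**
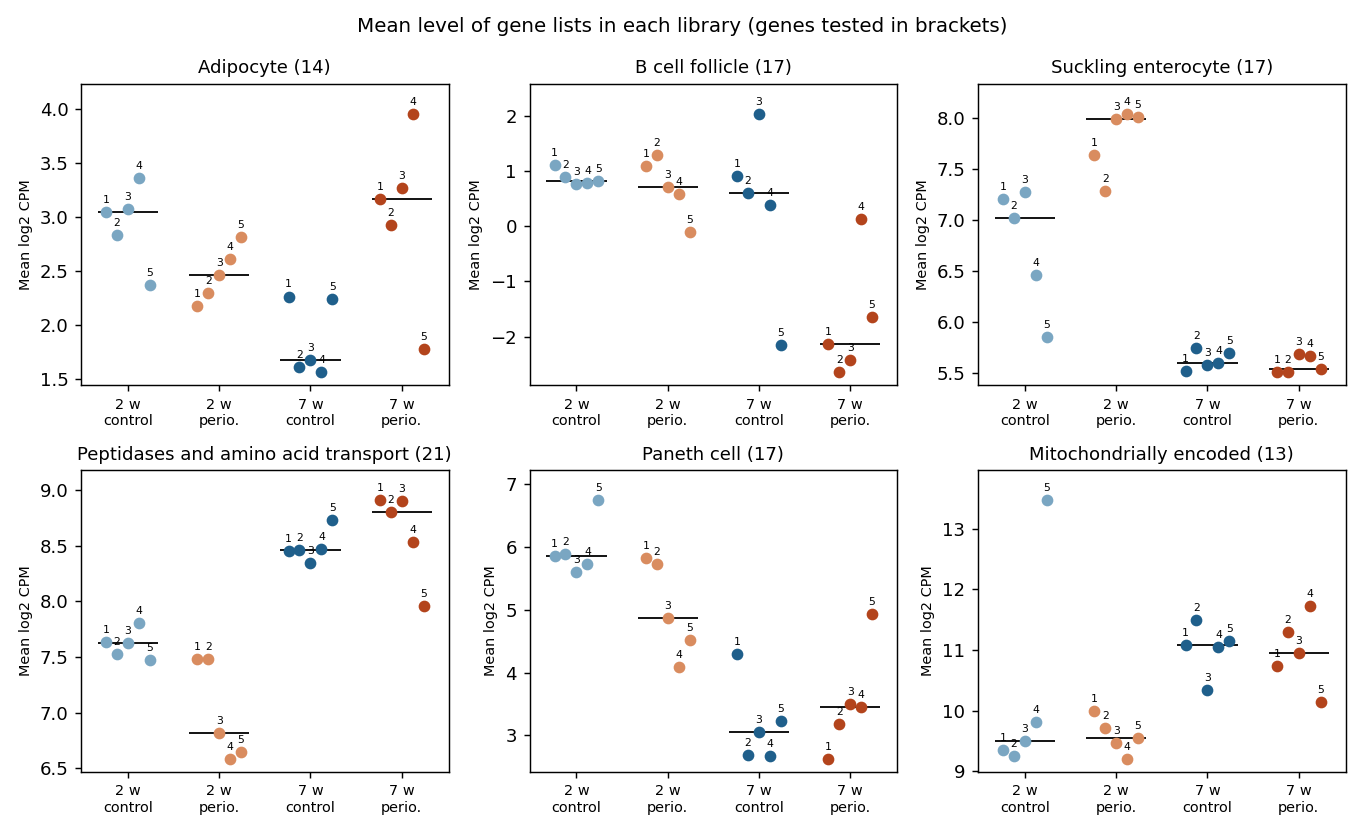
Mean log2 CPM of 6 gene lists in each library (numbered points) with the group median as a bar. Control library 5 of 2 weeks stands apart for mitochondrially encoded genes (13.5 against 9.25 to 9.81 in the other 4 controls), and periodontitis library 5 of 7 weeks for adipocyte genes (1.78) and Paneth cell genes.

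Library totals ran from 14.9 to 42.6 M (mega) counts. Control library 5 of 2 weeks, the smallest, had 29.4% of its counts on mitochondrially encoded genes, and the other 19 libraries had 3.99% to 9.15%. Without it the median interaction of the 13 mitochondrially encoded genes went from 1.77 to -0.06. Fabp6, which carries bile acids in ileal enterocytes, was at 197 to 510 CPM in control and 2.92 to 365 CPM in periodontitis libraries of 2 weeks, the lowest being libraries 3 to 5, and at 0 to 0.724 CPM in every library of 7 weeks, so age and the segment sampled cannot be told apart. The mean of the proximal intestine list was 7.06 to 7.36 in periodontitis libraries 1 to 4 of 7 weeks, 8.44 in library 5 and 7.86 to 8.37 in the controls. With the proximal and distal lists as covariates the interactions were 3.17 for Klf15, 2.36 for Scd1, 6.33 for Cfd and 5.84 for Retn (edgeR adjusted p = 0.0157, 0.0257, 0.0321 and 0.0439). Y-linked transcripts and Xist also differed between the ages. At 7 weeks Xist was at most 0.658 CPM and the Y-linked Ddx3y at 29.2 to 152 CPM. At 2 weeks Xist ran from 0.71 to 137 CPM and Ddx3y from 0 to 77.4 CPM. Some libraries of 2 weeks held both, such as control library 3 (Xist 90 and Ddx3y 16.5 CPM). Age and sex can thus not be fully told apart. With a covariate for Y-linked genes the same 4 genes passed.

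Leaving out 1 library at a time, Klf15 passed in 20 of 20 fits (2.79 to 3.35; edgeR adjusted p from 0.00264 to 0.0398). Cfd passed in 14 and was lost without control library 2, 3, 4 or 5 of 7 weeks (edgeR adjusted p = 0.0558, 0.0539, 0.0614 and 0.0516) or periodontitis library 1 or 3 of 2 weeks (0.0517 and 0.0618). Scd1 passed in 7, those without periodontitis library 1, 2, 3 or 5 of 7 weeks, control library 3 or 5 of 2 weeks or periodontitis library 2 of 2 weeks, and its adjusted p was 0.0505 to 0.0818 without any other. Retn passed in 6, those without periodontitis library 1, 3 or 5 of 7 weeks or the same 3 libraries of 2 weeks, with 0.0505 to 0.0818 otherwise. The interaction kept its sign in each of these fits for the 4 genes and stayed within 2.10 to 2.58 for Scd1, 6.70 to 7.80 for Cfd and 6.42 to 7.39 for Retn. The count of genes was 26 without periodontitis library 5 of 7 weeks, 14 without periodontitis library 2 of 2 weeks, 9 without control library 5 of 2 weeks and 1 to 4 without any of the rest.

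**Figure D5:**
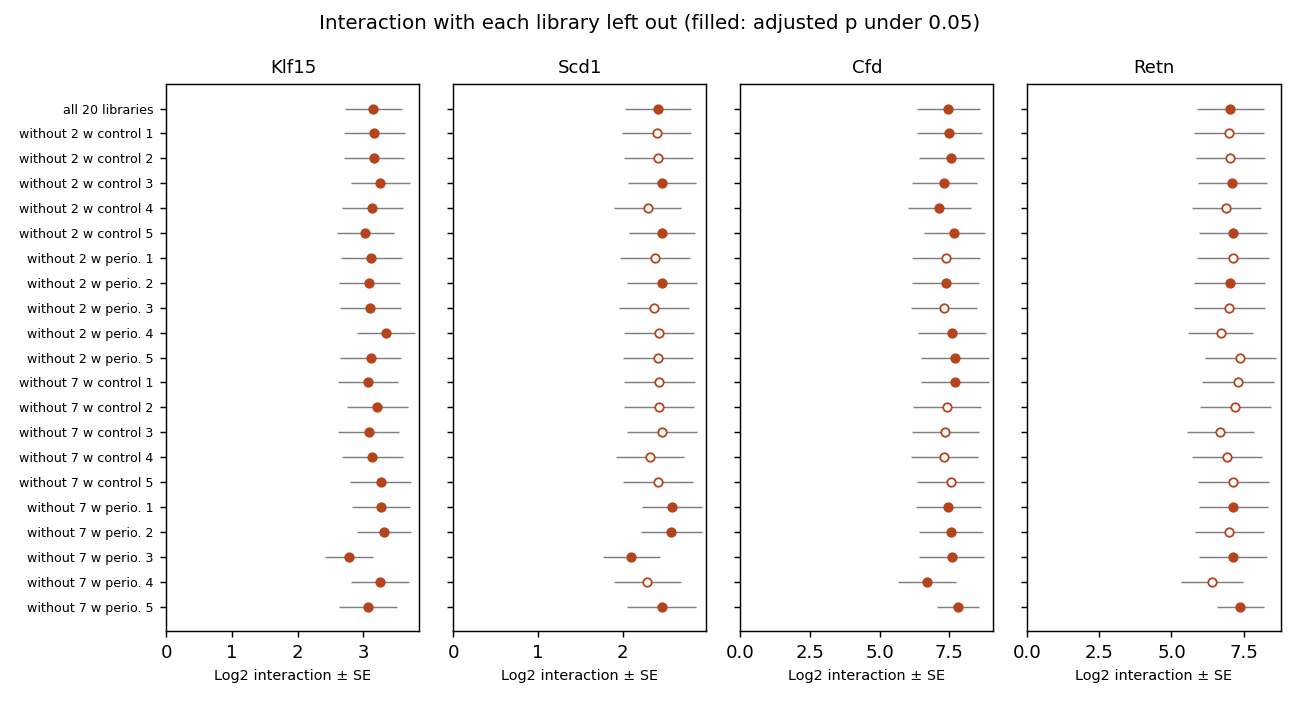
Interaction of the 4 genes on the log2 scale (bars are ± SE) with all 20 libraries and with each left out; filled points have an adjusted p under 0.05. Klf15 is filled throughout at 2.79 to 3.35, and the other 3 genes move little in size while crossing the threshold.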

How the data were processed

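PolyA RNA of small intestine was sequenced in bulk. The values are expected counts per gene, which the authors made with RSEM 1.3.3 after cutadapt 4.8, FastQC 0.11.8 and STAR 2.7.8a, per the submitters' processing notes. These list GRCh38 and GRCm38 without a role, and the annotation release and strandedness are not given in the sources used here. Coordinates are those of GENCODE M21 on GRCm38, to which 55141 gene IDs matched.

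In R 4.3.3, counts were rounded (0 values changed), filtered by filterByExpr (at most 0.0838% of a library's counts lost) and scaled by TMM. A robust quasi-likelihood model in edgeR 4.0.16 with 1 mean for each group had 16 residual degrees of freedom. Adjusted p-values are Benjamini-Hochberg over all tested genes, with a threshold of 0.05. SE is the log2 difference over the root of the F statistic. Levels of lists are log2 CPM with a prior count of 2. Alternatives used DESeq2 1.42.0, limma 3.58.1, other filters, covariates, a replicate block and left-out libraries.

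The comparison and the 58 gene lists were chosen with earlier results of these data known. Named genes were those that passed, the 10 smallest p among genes other than predicted loci whose mean log2 CPM reached 1, up to 4 members with the smallest p in each list with a member that passed, and a fixed set of 12 genes. Members of the other 11 lists were chosen after their values were seen. So were Plin1, Plin4, Fabp4, Cidea, Cidec, Pparg, Slc2a4, Lpl, Pck1, Lipe, Tsc22d3, Ddit4, Hp and Trim38.

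Tested on simulated data with 17297 genes, the interaction procedure recovered 16%, 80%, 94% and 98% of 50 genes each set to differ by 2, 4, 8 and 16 times, with 7 false calls among 17097. Genes of all 4 sizes were changed in the same run, which makes the adjusted p threshold easier to reach than where few genes differ. These shares thus do not give the recovery in the real data, where 4 genes passed.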

Additional observations from a re-analysis of the deposited data

Results flagged for a closer look

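The dam difference at 7 weeks departed from that at 2 weeks, by the interaction test, for Klf15 (3.157 on the log2 scale), Cfd (7.471), Scd1 (2.412) and Retn (7.047).

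Single libraries stood far from the other 4 of their group by Dixon's test, in 16 of 128 groups of 5 values (6.4 are expected by chance, as about 1 in 20 groups is picked). In control library 5 of 2 weeks these were the mitochondrial share at 29.4%, Mt1 at 539 CPM, Lgr5 at 36.8 CPM, Srebf1 at 17.1 CPM and Lct at 429 CPM. In periodontitis library 5 of 7 weeks they were Lyz1 at 924 CPM, Sis at 2370 CPM and Glud1 at 136 CPM. Lgr5 was at 1.18 CPM in periodontitis library 1 of 7 weeks. Klf15 was at 2.32 CPM and Lct at 820 CPM in periodontitis library 4 of 2 weeks, and Car3 was at 1.29 CPM in periodontitis library 1 of 2 weeks. Among controls, Scd1 was at 4.32 CPM in library 4 of 7 weeks (5.84 to 6.56 in the other 4). C8b was at 0 CPM in library 2 of 7 weeks (0.0656 to 0.0805 in the other 4). Mfsd2a was at 12.4 CPM in library 2 of 2 weeks and at 66.0 CPM in library 3 of 7 weeks. The test sets a gap against the range of the 5 values, taken for genes on log2 of CPM plus 0.5. A small gap can thus be flagged where the other 4 lie close together, as for C8b and Scd1.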

How the results depend on the processing

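The count of genes that passed the interaction test, 4 (all higher), was 4 (all higher) with DESeq2's size factors in edgeR, without a filter, without robust estimation, with a covariate for Y-linked genes and without pancreatic, immunoglobulin, haemoglobin and mitochondrial genes. It was 3 with CPM above 1 in 5 libraries, where Retn was not tested. It was 65 in DESeq2 (42 higher, 23 lower), 1182 in limma-voom with sample quality weights (792 and 390), 39 with covariates for proximal and distal genes (36 and 3), and 159 without control library 5 of 2 weeks and periodontitis library 5 of 7 weeks together (93 and 66). All 4 genes were among those called in each of these. With a covariate for adipocyte genes, added after the data were seen, it was 0. With 1 library left out it was 1 to 26 (1 to 21 higher, 0 to 5 lower). The cause of these shifts was not tested.

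Replicate numbers did not pair the libraries: of 30 same-numbered pairs, 4 had a correlation over 0.1, and 4 of 20 libraries correlated best with their own number. With the number as a replicate block edgeR called 0 genes for the interaction (1139 at an unadjusted p under 0.05), 0 at 2 weeks (2015) and 0 at 7 weeks (500). There Klf15 was at 3.11 (adjusted p = 0.0647), Cfd at 6.82 (0.27), Scd1 at 2.32 (0.258) and Retn at 6.63 (0.317).

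At 2 weeks the count of 5 was 599 in DESeq2, 5200 in limma-voom, 17 without robust estimation, 361 without both libraries 5 and 174 with the adipocyte covariate. In edgeR it was 0 with size factors of DESeq2 (2628 genes had an unadjusted p under 0.05), the Y-linked covariate (2028) and the proximal and distal covariates (917), and 0 to 387 with 1 library left out. At 7 weeks the count of 2 was 25 in DESeq2, 8 in limma-voom, 4 with the proximal and distal covariates, 32 without both libraries 5, 0 with the adipocyte covariate (577 at an unadjusted p under 0.05) and 0 to 15 with 1 library left out.

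Genes whose interaction changed sign were all far from the threshold. Lct was at 0.11 in limma-voom, 0.15 without both libraries 5 and -0.30 to 0.030 with 1 library left out (0.030 without control library 5 of 2 weeks). Lgr5 was at -0.23 in limma-voom, -0.030 with the proximal and distal covariates, -0.36 without both libraries 5 and -0.34 to 0.48 with 1 left out (-0.34 without control library 5 of 2 weeks). Lyz1 was at -0.077 without both libraries 5 and -0.081 to 1.83 with 1 left out (-0.081 without periodontitis library 5 of 7 weeks). Muc2 was at -0.20 with the proximal and distal covariates and -0.069 to 0.31 with 1 left out (-0.069 without control library 4 of 2 weeks). With a median SE of 0.388, interactions of about 1 or less on the log2 scale were mostly under what 5 libraries a group could call. Many larger ones did not pass either. The smallest that passed was 2.41 (Scd1), while Maoa (1.91), Paqr9 (-2.72) and Adipoq (6.72) did not. In the simulation, where many genes were changed together and low-level genes were left unchanged, 16% of genes set to differ by 2 times were called.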
